A study of Sus scrofa with 6 samples.

Results

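The miRNAs of the HOX gene clusters were followed in pig oocytes through 4 listed names, ssc-miR-10a-5p, ssc-miR-10b, ssc-miR-196b and ssc-miR-196b-5p (ssc for Sus scrofa, left out below), out of 326 mature miRNAs listed for each library. They were chosen by where their genes lie, with earlier results of these data known. Small RNA was sequenced from denuded oocytes, that is, oocytes stripped of their cumulus cells, of prepubertal gilts whose ovaries came from an abattoir. Large-follicle oocytes (LO, 3 libraries) came from follicles 3 to 6 mm across, aspirated through a 20-gauge needle on a 10 mL syringe. Small-follicle oocytes (SO, 3 libraries) came from follicles under 2 mm, aspirated through a 23-gauge needle on a 5 mL syringe. Neither group carried a treatment or a genetic change. Follicle size, needle and syringe differed together and cannot be told apart. The sources used here do not give the number of oocytes or animals behind a library, and the libraries are called biological replicates.

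A miRNA guides the silencing complex to messenger RNAs that pair with its seed, the bases at positions 2 to 8. HOX genes are transcription factors that set position along the body axis, and their clusters also hold miRNA genes that are transcribed with the HOX genes around them. The miR-10 genes lie in the HOXB and HOXD clusters, and miR-10b is known for lowering HOXD10 protein in human breast cancer cells. The miR-196 genes lie in the HOXA, HOXB and HOXC clusters, and in mouse embryos miR-196a directs cleavage of the Hoxb8 messenger RNA. No messenger RNA was analysed here, so the HOX genes themselves were not measured.

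The mature sequences show how close the names are to each other. They are printed as the deposited tables spell them, with T for U, 5′ to 3′, and the seed in capitals.
miR-10b: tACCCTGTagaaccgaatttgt
miR-10a-5p: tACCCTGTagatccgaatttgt
miR-196b: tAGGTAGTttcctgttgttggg
miR-196b-5p: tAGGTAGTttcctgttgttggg
miR-196a: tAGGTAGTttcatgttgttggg
All of these are 22 nt long. Counted from 1 at the 5′ end of miR-10b, miR-10a-5p differs from it at 1 base, A12T, outside the seed. Both therefore share the seed ACCCTGT, and no other listed name contains these letters. miR-196b and miR-196b-5p have identical sequences, so their reads cannot be assigned to one name or the other, and they are summed below as the miR-196b sequence. miR-196a differs from miR-196b by C12A, with the same seed.

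Other listed miRNAs overlap these sequences in part. The miR-196 seed AGGTAGT also occurs in let-7a, let-7c, let-7d-5p, let-7f, let-7g, let-7i and miR-98, in each of these 7 at positions 3 to 9, where it is shifted by a single base from the let-7 seed. With miR-196a and the names of the miR-196b sequence that made 10 of the 326 listed names (3.07%). miR-100, of the related family of miR-99 and miR-100, shares a run of 11 bases with miR-10a-5p, shown in capitals.
miR-10a-5p: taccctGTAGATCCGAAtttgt
miR-100: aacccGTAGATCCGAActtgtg
miR-10a-5p and miR-100 lay 4 edits apart and miR-10b and miR-100 lay 5 edits apart, counting insertions and deletions, and their seeds differ.

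The pig RefSeq gene table (assembly Sscrofa11.1) was matched for MIR10A, MIR10B, MIR196A-1, MIR196A-2 and MIR615, and not for MIR196B. The nearest HOX genes were HOXB3 and HOXB5 on either side of MIR10A, HOXD8 and HOXD3 around MIR10B, HOXB8 and HOXB13 around MIR196A-1, and HOXC10 and HOXC9 around MIR196A-2. MIR615, another miRNA of the HOXC cluster, overlapped HOXC5. Coordinates are not printed because the submitters' processing notes name another build, Sscrofa10.2.

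The libraries held 7755 to 42541 reads of listed miRNAs in LO and 44964 to 55230 in SO. Values are reads per 1000000 (RPM) of a total that the authors set per library, of which listed miRNAs took 1.68% to 3.03% in LO and 2.33% to 2.88% in SO. LO replicate 2 had the fewest reads and the lowest listed share. A count of 0 allows up to 3 reads, which is 2.11 to 6.50 RPM in LO and 1.37 to 1.57 RPM in SO. Intervals and limits cover counting error only, since reads are not independent molecules. The p-values treat the library as the unit and do not measure a spread. The limma, edgeR and DESeq2 fits share variance information across miRNAs. Fewer cells of a type and less RNA per cell cannot be told apart in such bulk samples.

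miR-10b was by far the most abundant of the 4 names. It had 245, 102 and 558 reads in replicates 1 to 3 of LO, and 843, 763 and 1124 reads in replicates 1 to 3 of SO. These were 425, 221 and 392 RPM in the LO libraries, and 440, 398 and 514 RPM in the SO libraries. LO replicate 2 was the lowest and SO replicate 3 the highest library, and LO replicate 1 lay above SO replicate 2, so the groups overlapped on this scale. miR-10b held 3635 of the 3666 reads of the 4 names (99.2%), and between 98.1% and 99.6% of them in each library.

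miR-10a-5p, the HOXB member of the same seed, was detected in all 6 libraries at a few reads each. It had 4, 1 and 6 reads in replicates 1 to 3 of LO, and 9, 5 and 3 reads in replicates 1 to 3 of SO, or 6.95, 2.17 and 4.21 RPM in the LO libraries and 4.70, 2.61 and 1.37 RPM in the SO libraries. The group ranges overlapped, and LO replicate 2 and SO replicate 3 stood at or under 3 reads. The other arm of its precursor, miR-10a-3p, had 0 reads in every library.

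The miR-196b sequence was at the edge of detection. Under the name miR-196b a single read was found in LO replicate 2, and under miR-196b-5p a single read was found in SO replicate 1 and another in SO replicate 3. LO replicates 1 and 3 and SO replicate 2 had 0 reads. The 3 reads among 218890 listed miRNA reads made a share of 0.00137% (95% exact Clopper-Pearson interval 0.000283 to 0.00401). No fold change between LO and SO is given for it, because no library passed 3 reads.

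The remaining listed miRNAs of HOX clusters were as sparse. miR-196a had 2 reads in SO replicate 1 and 0 elsewhere, and miR-615 had 1 read in LO replicate 3 and 0 elsewhere. miR-196b-3p, the opposite arm, had 0 reads in all 6 libraries.

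**Figure D1:**
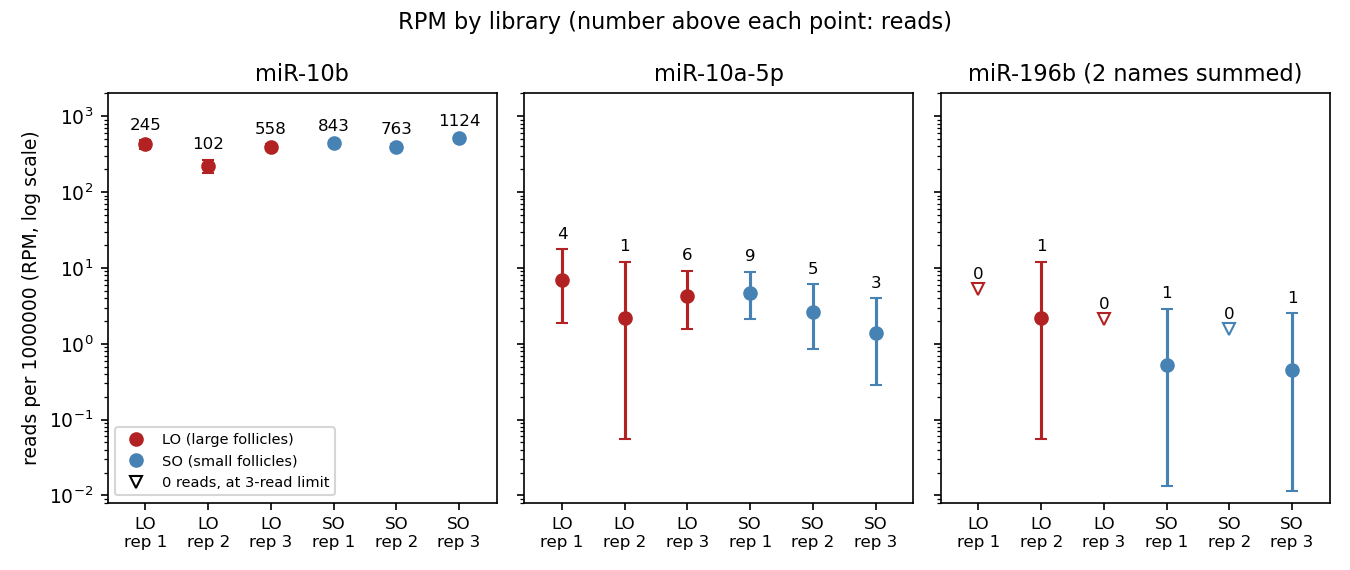
RPM on a log axis for miR-10b, miR-10a-5p and the miR-196b sequence in each library (LO red, SO blue), with exact 95% Poisson intervals and the number of reads above each point. Open triangles mark libraries with 0 reads at the limit of 3 reads. miR-10b lies between 221 and 514 RPM in all 6 libraries, while miR-10a-5p never passes 6.95 RPM and the miR-196b sequence never passes 1 read.

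The first comparison set miR-10b against its HOX-cluster relatives within each library. miR-10b outnumbered miR-10a-5p by 61.3, 102 and 93.0 to 1 in replicates 1 to 3 of LO, and by 93.7, 153 and 375 to 1 in replicates 1 to 3 of SO. miR-10b was the higher of the pair in 6 of 6 libraries. The mean log2 ratio, with 0.5 read added to each count, was 6.70 (range 5.77 to 8.33; exact two-sided sign-flip permutation p = 0.03125, the smallest that 6 libraries can give, and 0.0625 adjusted over the 4 exact tests made). The names were chosen with earlier results known, so this p describes the counts and adds no independent support. Over all libraries miR-10a-5p made up 28 of 3663 miR-10 reads, 0.764% (95% exact interval 0.509 to 1.10).

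Names this close can share reads. Among the listed names, 6 pairs differed by 1 substitution and had at least 1000 reads for the more abundant name, and the less abundant name held from 0.764% of the pair's reads, for miR-10a-5p beside miR-10b, to 39.6%, for let-7f beside let-7a. The next lowest was miR-27a beside miR-27b-3p, at 3.53%. How many reads named miR-10a-5p came from misread or wrongly assigned miR-10b was not tested, so its level is uncertain.

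miR-10b also exceeded the miR-196b sequence in 6 of 6 libraries. The mean log2 ratio with 0.5 read added was 9.07 (range 6.09 to 10.6; exact two-sided sign-flip permutation p = 0.03125, adjusted 0.0625). Since the miR-196b sequence had at most 1 read in any library, every ratio was positive and p could only take its smallest value. That p adds no support beyond the counts, and the size of the ratio depends on the reads added. In LO replicates 1 and 3 and SO replicate 2 the miR-196b sequence had 0 reads. There the miR-10b reads were 81.7, 186 and 254 times the limit of 3 reads, in that order. The lower ends of the 95% exact intervals of the ratio, which also cover the counting error of miR-10b, were 65.9, 151 and 206. Over all libraries the ratio was 1212 to 1, with a 95% counting interval of 414 to 5878.

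The second comparison set LO against SO for miR-10b. Whether the group ranges overlapped depended on the scale, and no fit called miR-10b on any scale. In RPM it averaged 346 ± 110 among LO and 450 ± 58.7 among SO libraries (SD, n = 3 each). In a limma fit of log2(RPM + 1) over the 104 miRNAs with enough reads, the log2 fold change was -0.43 (SE 0.44), with a false discovery rate (FDR) of 0.780. That fit called 0 of the 104 miRNAs at FDR 0.05 (0%) and had 4 with an unadjusted p under 0.05 (3.85%), and miR-10b was in neither count. Over all tested miRNAs the median was 0.29, and 13 of the 104 had a lower value than miR-10b. The value moved to -0.13 without LO replicate 2.

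As a share of listed miRNA reads, miR-10b held 1.40%, 1.32% and 1.31% in replicates 1 to 3 of LO, and 1.53%, 1.70% and 2.21% in replicates 1 to 3 of SO. Every LO library lay below every SO library, and LO replicate 2, the lowest in RPM, did not stand apart from the other LO libraries on this scale. The 95% exact interval of LO replicate 1 (1.23 to 1.59) overlapped that of SO replicate 1 (1.43 to 1.63), the closest library of the other group. The interval of LO replicate 2 (1.07 to 1.59) overlapped it as well. Both of these LO intervals also reached that of SO replicate 2 (1.58 to 1.82). The mean share was 1.34% ± 0.0517 among LO and 1.81% ± 0.354 among SO libraries (SD, n = 3 each). The difference of -0.467 percentage points had an exact two-sided permutation p of 0.1, below which 3 libraries against 3 cannot go, and 0.1 after adjustment over the 4 exact tests. Without SO replicate 3 it was -0.268.

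Such separation was not rare on that scale. Group ranges did not overlap for 16 of the 104 tested miRNAs (15.4%), of which 7 were lower in LO (6.73%): miR-9-1, miR-10b, miR-30d, miR-101, miR-187, miR-218b and miR-489. On the RPM scale 4 of 104 (3.85%) had ranges apart, and miR-10b was not among them.

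**Figure D2:**
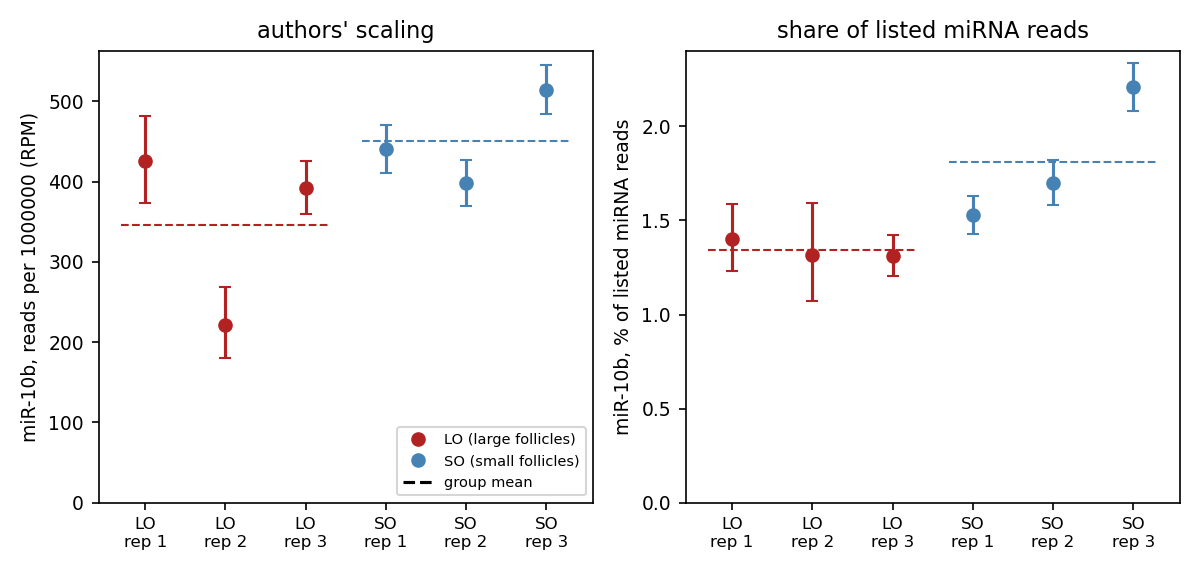
miR-10b in each library as RPM (left) and as a percentage of listed miRNA reads (right), LO in red and SO in blue. Points carry 95% counting intervals (exact Poisson on the left, Clopper-Pearson on the right) and dashed lines are group means. In RPM the groups overlap because LO replicates 1 and 3 reach 425 and 392 against 398 in SO replicate 2, whereas the shares run from 1.31% to 1.40% in LO and from 1.53% to 2.21% in SO.

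Fits with other scalings also placed miR-10b lower in LO, with no call. limma per 1000000 listed miRNA reads gave a log2 fold change of -0.41 (SE 0.23, FDR 0.502), limma on log2 CPM with TMM scaling gave -0.67 (SE 0.27, FDR 0.337), and edgeR (quasi-likelihood, TMM, recovered reads) gave -0.70 (FDR 0.205). DESeq2 gave -0.76 (SE 0.28, adjusted p = 0.295). In the edgeR fit miR-10b was one of 13 miRNAs (12.5%) with an unadjusted p under 0.05 (its own edgeR p = 0.0119, no exact test), 7 of them lower in LO (6.73%). The 2 miRNAs that this fit called (1.92%) did not include it. Its log2 fold change was negative in all 22 alternative fits, from -0.76 to -0.13, and its FDR ran from 0.162 to 0.992.

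miR-10a-5p did not pass the filter on low reads of the limma fit over 104 miRNAs. Its mean was 4.44 ± 2.40 RPM over the LO libraries and 2.89 ± 1.68 RPM over the SO libraries (SD, n = 3 each), with pooled reads of 11 in LO and 17 in SO. The mean of log2(RPM + 1) was 0.48 higher in LO, within the spread between libraries, and it was 0.15 without LO replicate 1, 0.16 without SO replicate 3 and 0.82 without LO replicate 2. Over the 242 miRNAs with at least 1 read it was not called by limma (log2 fold change 0.48, SE 0.76, FDR 0.829) or by DESeq2 (0.28, SE 0.94, adjusted p = 0.981).

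The third comparison asked whether the balance of the miR-10 pair differed between the groups. miR-10a-5p made up 1.61%, 0.971% and 1.06% of miR-10 reads in replicates 1 to 3 of LO, and 1.06%, 0.651% and 0.266% in replicates 1 to 3 of SO. LO replicate 2 lay below SO replicate 1, so the ranges overlapped. Pooled, miR-10a-5p held 1.20% of the miR-10 reads in LO (95% exact interval 0.601 to 2.14) and 0.619% in SO (0.361 to 0.989). The log2 ratio of miR-10b to miR-10a-5p, with 0.5 read added to each, averaged 6.10 ± 0.328 among LO and 7.31 ± 0.942 among SO libraries (SD, n = 3 each). The difference of -1.21 had an exact two-sided permutation p of 0.1, the smallest possible, with 0.5 read added and of 0.2 with 0.1 read added. Without SO replicate 3 it was -0.70. With 0.5 read added the ratios ran from 5.77 to 6.42 in LO and from 6.47 to 8.33 in SO, and each rested on 1 to 9 reads of miR-10a-5p.

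The related names miR-99a, miR-99b, miR-100, miR-125a and miR-125b, which are often grouped with miR-10 into a wider family and lie outside the HOX clusters, were set beside it. None passed FDR 0.05 in the limma fit with all 6 libraries. All 5 of 5 had higher means in LO on the RPM scale, with log2 fold changes from 0.03 for miR-125b to 0.76 for miR-99b and a median of 0.64, beside 0.29 for all 104 tested miRNAs, of which 72 were higher in LO; with TMM 4 of 5 were higher, with miR-125b at -0.22, a median of 0.39 for the list and 0.05 for all. Several of these names are close in sequence, so reads may have been shared among them, and the values describe the list without a test of it. Single LO libraries moved these values. Without LO replicate 2 limma called miR-99a (log2 fold change 1.23, FDR 0.0346) and miR-125a (1.04, FDR 0.0346), in a fit whose median over all tested miRNAs was 0.62. Without LO replicate 1 miR-99a was at 0.10, miR-99b at 0.37, miR-125a at -0.15 and miR-125b at -0.08, beside a median of -0.06. miR-125b was also below 0 without LO replicate 3 (-0.14) and without SO replicate 3 (-0.01), and miR-125a was at 0.17 without SO replicate 1.

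**Figure D3:**
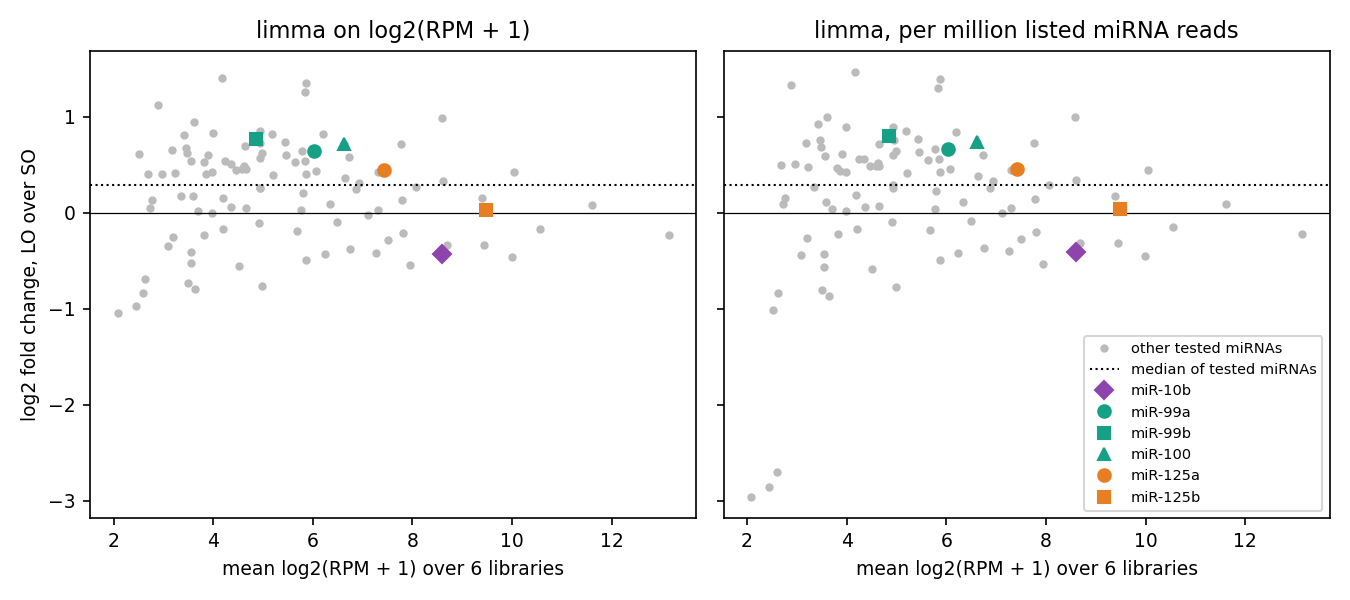
Log2 fold change of LO over SO against mean log2(RPM + 1) for the 104 tested miRNAs, by limma on log2(RPM + 1) (left) and per 1000000 listed miRNA reads (right). The dotted line is the median of all tested miRNAs (0.29 on both scales). miR-10b lies at -0.43 and -0.41, and its relatives lie between 0.03 and 0.80; with TMM scaling, not plotted, miR-125b was at -0.22.

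Within a library, miR-10b was set against its abundant relative miR-125b, a relative of the worm miRNA lin-4. The ratio of miR-10b to miR-125b reads was 0.505, 0.453 and 0.428 in replicates 1 to 3 of LO, and 0.584, 0.570 and 0.759 in replicates 1 to 3 of SO. No LO library reached the lowest SO library. miR-125b itself took 2.91% ± 0.145 of listed reads among LO and 2.83% ± 0.192 among SO libraries (SD, n = 3 each).

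The ratio of miR-10b to miR-100 was 2.72, 1.57 and 4.43 in replicates 1 to 3 of LO, and 5.90, 6.36 and 5.54 in replicates 1 to 3 of SO, again with no overlap. Against miR-99a and miR-99b the groups were apart in the same way, and against miR-125a they overlapped, at 0.932 to 2.55 in LO and 1.73 to 4.37 in SO. Set against each of the other 103 tested miRNAs, the ratio of miR-10b was lower in every LO than in every SO library for 39 (37.9%) and higher for 1 (0.971%). The order was thus not particular to these relatives.

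**Figure D4:**
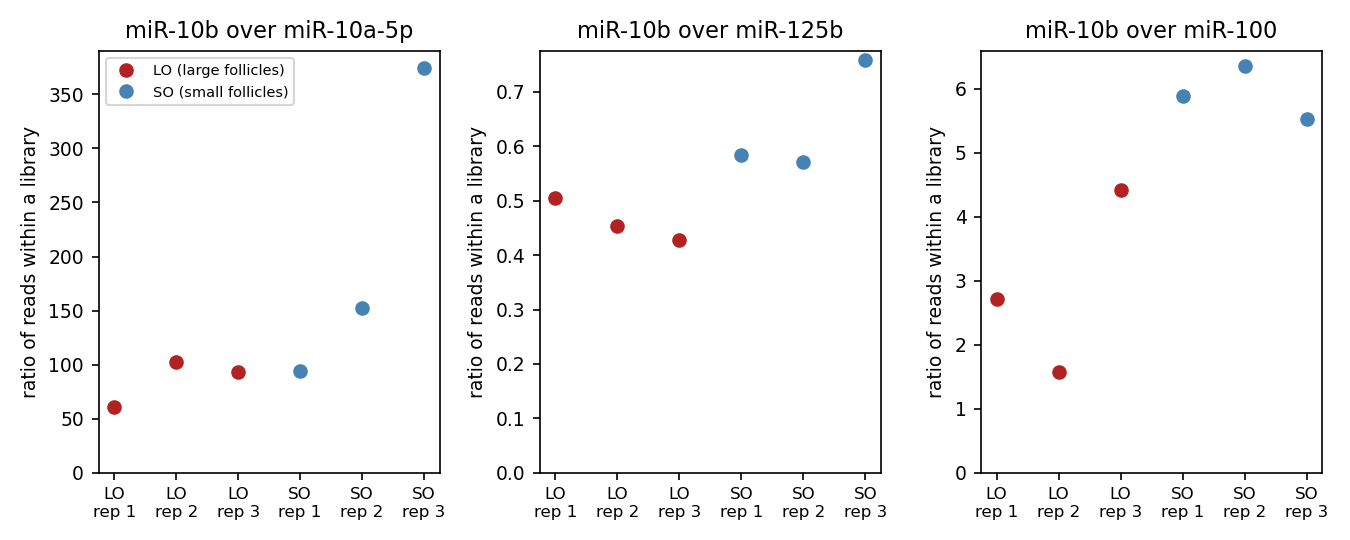
Ratio of miR-10b reads to those of miR-10a-5p, miR-125b and miR-100 within each library (LO red, SO blue, linear axes from 0). The ratio to miR-10a-5p runs from 61.3 to 102 in LO and from 93.7 to 375 in SO and overlaps between the groups, and the ratios to miR-125b and miR-100 do not overlap.

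In the order of abundance over all 6 libraries miR-10b was miRNA 12 of 326. By library its rank was 13, 11 and 12 in replicates 1 to 3 of LO, and 10, 10 and 9 in replicates 1 to 3 of SO. It averaged 398 ± 97.2 RPM (SD over the 6 libraries), and just above it stood let-7c (458 ± 355 RPM), miR-103 (428 ± 201) and miR-182 (418 ± 72.1). Those 3 exceeded miR-10b in 3, 2 and 4 of the 6 libraries, so their order relative to it varied between libraries, and a difference was not tested. Just below stood miR-26a (275 ± 72.7 RPM), miR-7 (260 ± 93.6) and miR-21 (243 ± 114), and miR-10b exceeded each of these in 6 of 6 libraries although the ranges over libraries overlapped. miR-10a-5p came at place 129, miR-196b at 205 and miR-196b-5p at 229, the last places resting on 1 or 2 reads.

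**Figure D5:**
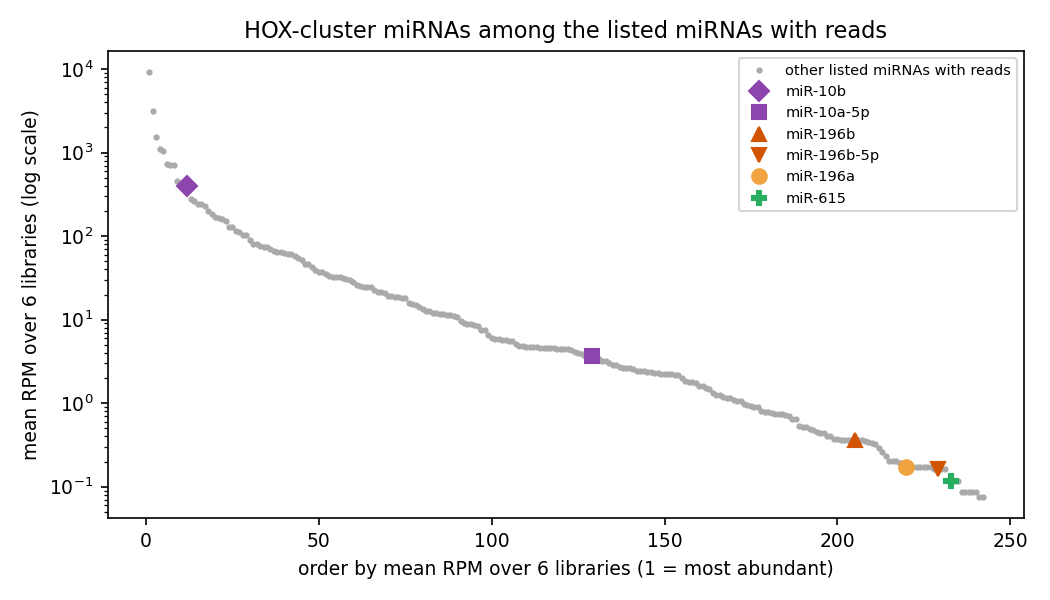
Mean RPM over the 6 libraries (log axis) against order of abundance for the 242 listed miRNAs with at least 1 read. miR-10b is at place 12, miR-10a-5p at place 129 and the miR-196 names and miR-615 at places from 205 to 233.

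The miRNAs whose levels were most like miR-10b across the 6 libraries, by Pearson r of log2(RPM + 1), were miR-489 (r = 0.89), miR-30d (0.88), miR-185 (0.87), miR-361-3p (0.87) and miR-9-1 (0.86), beside a median of 0.40 over the other tested miRNAs. The points share library and scaling, and miR-185 and miR-361-3p had 0 reads in LO replicate 2. Per 1000000 listed miRNA reads, miR-489 (r = 0.91), miR-30d (0.75) and miR-9-1 (0.67) stayed among the 5 most alike, joined by miR-205 (0.58) and miR-503 (0.55), with a median of -0.28. miR-489 had 26.0, 17.3 and 28.1 RPM in replicates 1 to 3 of LO, and 39.7, 37.0 and 44.3 RPM in replicates 1 to 3 of SO, the same lowest and highest library as miR-10b.

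Markers of other follicle cells were read beside miR-10b, because miRNAs of somatic cells can remain after denuding. Granulosa and cumulus markers, all 8 of 8 with reads, took 1.93% to 3.82% of listed reads in LO and 1.68% to 2.55% in SO. Only 4 of the 8 passed the filter on low reads. The highest were miR-21, miR-31 and miR-202-5p (mean 243, 242 and 152 RPM), while miR-212, miR-224 and miR-383 averaged 0.163, 0.117 and 0.0869 RPM. Theca, stroma and smooth muscle markers, 5 of 6 with reads and miR-214 at 0, took 0.242% to 0.438% in LO and 0.185% to 0.328% in SO. Endothelial markers, 2 of 2 with reads, took 0.0306% to 0.0645% in LO and 0.0137% to 0.0489% in SO. SO replicate 3, with the highest share of miR-10b, had the lowest share of each of these 3 lists. It also had the lowest share of the skeletal muscle and germ cell markers given below. Erythroid markers (3 of 3 with reads) took 0.0141% to 0.0258% in LO and 0.00667% to 0.0157% in SO, and skeletal muscle markers (3 of 5 with reads, miR-133b and miR-133a-5p at 0) took 0.0329% to 0.0774% in LO and 0.0157% to 0.0222% in SO. The labels name no oocyte-defining miRNA. Of miR-34c and miR-202-5p, known from germ cells and gonads, miR-202-5p is also in the granulosa list. Together they took 0.542% to 0.905% in LO and 0.540% to 0.884% in SO. Most of this was miR-202-5p (mean 152 RPM over the 6 libraries, beside 29.5 RPM for miR-34c). The erythroid share was lowest in SO replicate 2, and the share of miR-34c and miR-202-5p was lowest in SO replicate 3. miR-205, the most abundant miRNA, held 27.7% to 38.0% of listed reads in LO and 36.7% to 43.2% in SO. Its highest share was in SO replicate 3, and its part in the other shares of that library was not tested. Leaving miR-205 out of the total gave miR-10b shares of 1.94% to 2.12% in LO and 2.41% to 3.88% in SO, still without overlap. The part of the other cell types in the miR-10b values was not tested.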

How the data were processed

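Per the labels' protocols, RNA from denuded oocytes was isolated with the mirVana kit and libraries were made with the QIAseq miRNA kit; per the series' design they were run on a NextSeq500. Tools listed in the submitters' processing notes, without their roles, are bcl2fastq, cutadapt, edgeR and Bowtie2 2.2.2, and the build listed is Sscrofa10.2. The sources used here do not say whether molecular identifiers were used. The deposited values, called TPM in the file headers, were read as RPM because every value was a whole multiple of 1 step per library whatever the sequence length. After division by that step 100% of the values above 0 were whole reads (tolerance 0.01 read).

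LO and SO were compared mainly with limma 3.58.1 (trend option) on log2(RPM + 1), group as the only term, Benjamini-Hochberg adjustment over the 104 miRNAs passing edgeR's filterByExpr on the recovered reads; fold changes on that scale understate the change of low miRNAs. edgeR 4.0.16 and DESeq2 1.42.0 (on the 242 miRNAs with reads) were alternatives, in R 4.3.3. Ratios and shares were compared over libraries by exact permutation.

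Members, lists and tests were chosen with earlier results of these data known. Named miRNAs were the members, other listed HOX-cluster miRNAs, names sharing their seed, the miR-99, miR-100 and miR-125 names, the 3 next above and below miR-10b in abundance, the 5 most alike, and the cell type markers. The let-7 and other names given for a shared motif, a pair 1 base apart or separate ranges were chosen after their values were seen. Same-numbered libraries did not deviate together, which cannot exclude a shared batch.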

Additional observations from a re-analysis of the deposited data

How the results depend on the processing

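The log2 fold change of miR-10b was negative in all 22 alternative fits and never passed FDR 0.05; 7 of these, the fits per 1000000 listed miRNA reads that leave out a library or add the block, were chosen after seeing the data. The count of miRNAs past FDR 0.05, 0 in the limma fit, was 2 in edgeR with TMM and 2 in edgeR with DESeq2 size factors; leaving out single libraries gave 0 to 18 on the RPM scale, the 18 without LO replicate 2, and 0 to 4 per 1000000 listed miRNA reads, the 4 again without LO replicate 2. miR-10b was in none of these; of the relatives named, miR-99a and miR-125a were among the 18. For the within-library ratios the mean log2 ratio ran from 6.38 to 6.89 over miR-10a-5p and from 8.77 to 9.67 over the miR-196b sequence when 1 library was left out, with p = 0.0625 each time by exact permutation, the smallest that 5 libraries can give. The differences between LO and SO in the share of miR-10b and in its ratio to miR-10a-5p stayed negative in all 9 alternatives each.

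Same-numbered libraries gave no sign of a pairing: the correlations of same-numbered deviations over 104 miRNAs were -0.34, -0.22 and 0.08. Other LO and SO combinations ran from -0.29 to 0.43. Deviations from a mean of 3 libraries depend on each other, so these values cannot exclude a shared batch. With the replicate number as a block the log2 fold change of miR-10b was -0.43 (FDR 0.853), 0 miRNAs were called, and the exact p of the share and of the ratio was 0.25, the smallest for 3 pairs. The 2 names of the miR-196b sequence had at most 1 read a library and were not refitted under other scalings, and miR-10a-5p, under the filter, has no edgeR or TMM value. Depth limits both: in LO replicate 2 a single read is worth 2.17 RPM.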
